A study of Mus musculus with 33 samples.

Results

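The nuclear-encoded subunits and assembly factors of the mitochondrial respiratory chain were followed in mouse quadriceps RNA. Members were the genes whose symbol begins with Nduf, Uqcr, Atp5 or Cox4 to Cox8, or is Sdha, Sdhb, Sdhc or Sdhd, with a mean of at least 1 CPM (counts scaled to the library total) over the 33 libraries. Of 23420 genes in the files, 92 symbols matched and 88 passed. By the known role of their products, 35 are subunits of complex I, 7 are assembly factors of complex I, 4 are subunits of complex II, 8 of complex III, 15 of complex IV and 15 of complex V. The remaining 4 (Ndufa4l2, Cox7a2l, Atp5s and Atp5sl) share a family's name but are no standing subunit of a complex. Ndufa4 was counted with complex IV, where its product sits. Of the symbols left out, Cox6b2 (mean 0.18 CPM) came nearest to the minimum but lay well below it, and Cox4i2 (1.27 CPM) was the member nearest above it. Ndufs5 and Cox8c were listed at 0. Whether reads of Ndufs5 were assigned elsewhere in the counting is not known, so its 0 does not show a lack of expression. Symbols of the mitochondrially encoded subunits numbered 0 in the files.

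Adult male C57BL6 mice, WT or Actn3 null (KO), received a single intraperitoneal bolus of dexamethasone sodium phosphate at 20 mg/kg or saline, and quadriceps RNA was sequenced 3 h or 24 h later. Dexamethasone is a synthetic glucocorticoid, and Actn3 encodes alpha-actinin-3, a Z-disc protein of fast muscle fibres that the null mice lack throughout life. The groups were KO dexamethasone 24 h (n = 5), KO saline 24 h (n = 3), WT dexamethasone 24 h (n = 5), WT saline 24 h (n = 4), KO dexamethasone 3 h (n = 5), KO saline 3 h (n = 3), WT dexamethasone 3 h (n = 5) and WT saline 3 h (n = 3). The labels do not tie libraries to animals, so p-values measure the spread between these samples, which may be technical in part.

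The respiratory chain passes electrons from NADH (complex I) and succinate (complex II) through ubiquinone to complex III, cytochrome c and complex IV, and complex V uses the resulting proton gradient to make ATP. Most of its subunits are encoded in the nucleus, and their genes are known targets of the nuclear respiratory factors NRF1 and NRF-2 (GABP), of YY1 and of the ERR receptors, with PGC-1 proteins as coactivators. In skeletal muscle, complex IV carries muscle isoforms of some of its small subunits (Cox6a2, Cox7a1, Cox8b) in place of those of other tissues.

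Promoters of 6 members that are described below are shown first; they were picked because they hold a motif of the factors named above. Each runs from 120 bases before to 30 bases after the RefSeq start in GRCm38.p6, on the gene's strand, with the motif matches in capitals.
Ndufs3: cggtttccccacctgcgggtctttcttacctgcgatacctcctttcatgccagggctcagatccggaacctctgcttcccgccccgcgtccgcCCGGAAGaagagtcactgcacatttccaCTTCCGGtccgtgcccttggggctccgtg
Sdhb: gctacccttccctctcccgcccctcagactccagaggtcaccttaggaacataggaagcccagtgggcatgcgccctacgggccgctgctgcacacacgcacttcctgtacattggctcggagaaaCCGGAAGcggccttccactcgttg
Uqcrh: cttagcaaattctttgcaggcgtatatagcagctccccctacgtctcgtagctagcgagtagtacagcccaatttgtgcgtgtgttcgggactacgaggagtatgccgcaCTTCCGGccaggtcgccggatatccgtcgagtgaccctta
Cox6b1: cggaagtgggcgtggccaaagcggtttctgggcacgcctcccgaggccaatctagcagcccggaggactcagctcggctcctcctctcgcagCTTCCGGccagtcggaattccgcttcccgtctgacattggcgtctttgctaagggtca
Atp5k: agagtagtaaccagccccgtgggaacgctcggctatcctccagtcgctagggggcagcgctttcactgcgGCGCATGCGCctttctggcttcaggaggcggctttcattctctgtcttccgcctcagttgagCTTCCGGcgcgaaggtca
Atp5g3: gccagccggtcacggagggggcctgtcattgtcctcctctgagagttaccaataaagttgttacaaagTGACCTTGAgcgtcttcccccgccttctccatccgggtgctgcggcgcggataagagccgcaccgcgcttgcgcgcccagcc
These windows lie at chr2:90904692-90904841 (minus strand, Ndufs3), chr4:140961151-140961300 (plus, Sdhb), chr4:116075041-116075190 (minus, Uqcrh), chr7:30626085-30626234 (minus, Cox6b1), chr5:108434370-108434519 (minus, Atp5k) and chr2:73911297-73911446 (minus, Atp5g3). The capitals mark CCGGAAG or its reverse complement, the core bound by NRF-2 (GABP), in 5 of the promoters, the NRF1 palindrome, GCGCA followed by its reverse complement, in that of Atp5k, and the reverse complement of the ERR site TCAAGGTCA in that of Atp5g3.

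Promoters from 250 bases before to 50 after the start were at hand for 73 of the 88 members and for 27025 genes in all, and each motif was searched on both strands. CCGGAAG stood in 17 members' promoters (23.3%), against 9.93% of all promoters. The NRF1 palindrome stood in 7 (9.59%), against 1.07% of all promoters. The YY1 site AAGATGGCG stood in 8 (11%), against 1.64%, and the ERR site in 2 (2.74%), against 0.47%. All promoters include those of genes too low in this muscle to be tested, whereas the members are all expressed. The shares among the 13955 genes tested were not counted, so the higher shares are not shown to be particular to the members. By complex, CCGGAAG was in 4 of 31 promoters of complex I subunits, 2 of 3 of complex II, 2 of 5 of complex III, 3 of 11 of complex IV and 5 of 14 of complex V. The motif sets are separate and can share a promoter, as in Atp5k. The glucocorticoid response element, AGAACA and TGTTCT with 3 bases of any kind between, was in 0 of the 73, against 0.0111% of all promoters, which says only that these letters are not in these windows. Of the 73 promoters, 43 held none of the 5 motifs, among them those of Ndufa13, Cox8b, Atp5d, Cox5b, Sdha and Atp5f1, which are also described below. A match is a string of letters and not a measured site.

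Before the results, 3 facts of the libraries apply to all of them. The libraries held 19.7 M to 42.8 M counts assigned to genes (median 29.9 M), and the 88 members held 1.62 to 2.6% of them. The muscle genes Ckm (16300 to 27800 CPM), Acta1 (19800 to 31700 CPM) and Ttn (13400 to 23800 CPM) were high in all 33 libraries, and Actn3 itself was at 31.9 to 84.1 CPM in the 16 KO libraries, against 6960 to 9700 CPM in the 17 WT libraries. Libraries also differed in the level of short transcripts as a class. The mean log2 level of 296 genes that are no members and have transcripts under 700 bases ranged from -0.45 to 0.35 around the 33-library mean, and 35 of the 88 members have transcripts that short. In 8 of 8 groups the library with the highest mean level of the members was also highest for these other short genes, and in 7 of 8 the lowest library was the same. The library names fall into a main series and 5 libraries of an ML1716 series, whose meaning the labels do not give; 4 of those 5 were the highest of their group in the members' level. At the low end stood KO saline 3 h replicate 2, where the members' mean log2 level was -0.48 and that of the other short genes -0.45. The part of these differences in the results below was not tested; the main results are given with and without the libraries concerned, and also with transcript length corrected in each library, a correction that removes whatever moves with length, biological or technical.

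Per kilobase of transcript, mean levels over the 33 libraries spanned a wide range among the members. Complex IV held the highest and the lowest subunit, Cox6a2 at 1250 ± 235 CPM per kb and Cox4i2 at 1.75 ± 0.459 CPM per kb (SD, n = 33). Complex V subunits had the highest median, 330.0 CPM per kb, followed by complex III (278), complex IV (240.0), complex II (194) and complex I (136). The order holds for medians only, since the ranges within complexes overlap broadly. Complex I assembly factors, which act during biogenesis and are not in the finished complex, had a median of 12.3 CPM per kb and stayed between 4.1 (Ndufaf3) and 31.3 CPM per kb (Ndufaf1).

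Within complexes the catalytic subunits were not always the highest. In complex V the catalytic pair led: Atp5b (beta) had 1100 ± 110 CPM per kb and Atp5a1 (alpha) 967 ± 88.8, while Atp5c1, the central stalk's gamma subunit, had 497 ± 35.9. The c subunit of the membrane ring comes from 3 genes with the same mature protein. Atp5g3 (479 ± 94.1 CPM per kb) and Atp5g1 (427 ± 102) overlapped, and Atp5g2 (80.1 ± 13.5) lay below both, since its highest library (110.0) was under the lowest of Atp5g3 (255) and of Atp5g1 (293). In complex II, Sdha, the flavoprotein that oxidizes succinate, had 403 ± 48.3 CPM per kb, the iron-sulfur subunit Sdhb 232 ± 30.9, and the membrane anchors Sdhd and Sdhc 155 ± 27.2 and 46.4 ± 6.98. In complex III, Uqcrb (658 ± 71.7 CPM per kb) stood highest and Uqcrq (107 ± 23) lowest per length. The chosen transcript of Uqcrq has 1521 bases. Before division by length, Uqcrq (mean 163.7 CPM) lay above Uqcr10 (118.5 CPM, 434 bases). The Rieske protein Uqcrfs1 (123 ± 29.8 CPM per kb) was below the core proteins Uqcrc1 (276 ± 37.7) and Uqcrc2 (281 ± 26.6). In complex I the accessory subunits Ndufb9 (393 ± 63.6) and Ndufab1 (7.45 ± 1.57), the mitochondrial acyl carrier protein, marked the ends per length. The chosen transcript of Ndufab1 has 3479 bases. Before division by length, Ndufab1 (mean 25.95 CPM) lay above Ndufb4 (14.94 CPM, 971 bases). Among the nuclear core subunits of complex I, Ndufs1 (147 ± 20.7 CPM per kb), Ndufs7 (133 ± 26.5), Ndufv1 (132 ± 22.5), Ndufs3 (126 ± 20.9), Ndufv2 (122 ± 12.9) and Ndufs8 (100 ± 11.9) lay close together. Ndufb9 shares 19.5% of its exon bases with another gene in GENCODE M21. How reads over those bases were counted is not known, because the submitters' annotation is not given.

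**Figure D1:**
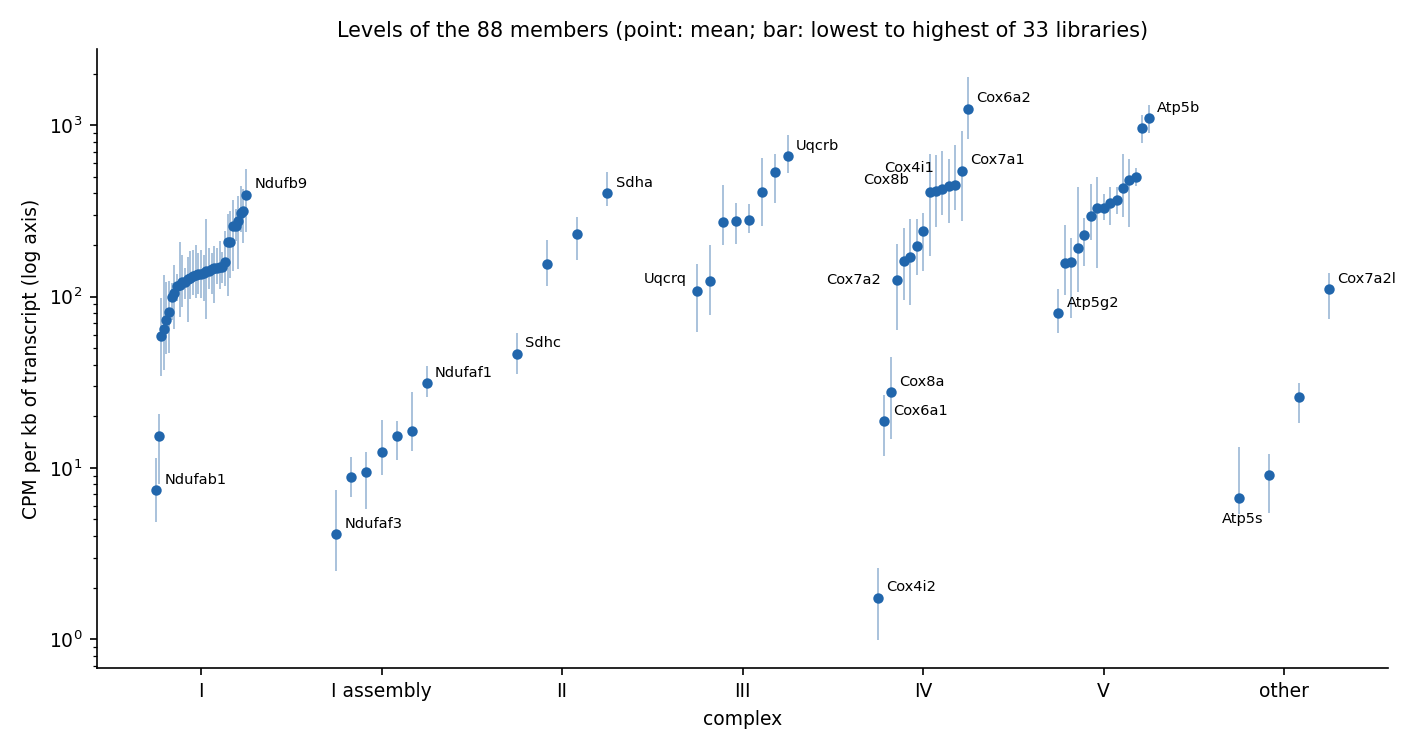
Levels of the 88 members in CPM per kilobase of transcript on a log axis, by complex; points are means over 33 libraries and bars run from the lowest to the highest library. Cox6a2 stands highest and Cox4i2 lowest, and the 7 assembly factors of complex I lie at or below 31.3 CPM per kb.

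The muscle isoforms of complex IV exceeded their counterparts in each of the 33 libraries. Cox6a2 exceeded Cox6a1 70.7-fold on average (range 31.1 to 130.0, per length), Cox8b exceeded Cox8a 15.1-fold (9.95 to 28.4), and Cox7a1 exceeded Cox7a2 4.49-fold (2.54 to 7.51). Cox4i1, the form of most tissues, exceeded Cox4i2, the form known from lung, 275-fold (139 to 647). Between dexamethasone and saline libraries of the same genotype and time these ratios overlapped, except for Cox8b over Cox8a in KO muscle at 24 h, where they were 13.6 to 28.4 in dexamethasone libraries, against 11.1 to 13.2 in saline libraries. The mean ratio of that pair was 17.3 ± 6.22 in KO dexamethasone 24 h libraries, against 11.8 ± 1.2 in KO saline 24 h libraries, and 15.5 ± 3.78 in KO dexamethasone 3 h libraries, against 12.6 ± 1.39 in KO saline 3 h libraries (SD). In WT muscle the order was the other way, with 15.9 ± 2.7 in dexamethasone 24 h libraries, against 18.5 ± 7.5 in saline 24 h libraries, and 12.7 ± 2.37 in dexamethasone 3 h libraries, against 14.9 ± 4.46 in saline 3 h libraries.

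At 3 h after dexamethasone, subunits of all 5 complexes were among the genes that rose in KO muscle. Of the 88 members 29 rose and 0 fell in KO dexamethasone over KO saline libraries (33% of members; of all 13955 genes tested 17.5% were called, 9.02% as higher), by edgeR's quasi-likelihood test with Benjamini-Hochberg adjustment over all genes at 0.05. The median log2 fold change was 0.37, against 0.01 for all genes tested, and 86 of the 88 values were above 0. By complex, 12 of 35 subunits of complex I rose (median log2 fold change 0.40), 1 of 4 of complex II (0.36), 3 of 8 of complex III (0.43), 7 of 15 of complex IV (0.47) and 6 of 15 of complex V (0.36). None of the 7 complex I assembly factors passed, at a median of 0.19, nor any of the 4 other family members (0.06). No difference between complexes was tested.

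Members of each complex are given library by library. Cox6b1, a small subunit on the outer face of complex IV, had 216, 274, 293, 297 and 338 CPM in KO dexamethasone 3 h libraries, against 218, 166 and 216 CPM in KO saline 3 h libraries. The dexamethasone libraries reached higher, but the lowest of them lay level with the upper saline values. Its log2 fold change was 0.50 ± 0.148 (SE; adjusted p = 0.0149). Ndufs3, a core subunit of complex I, had 105, 133, 118, 143 and 159 CPM in KO dexamethasone libraries, against 106, 74.4 and 103 CPM in KO saline libraries (log2 fold change 0.48 ± 0.139, adjusted p = 0.0142). The groups overlapped by 1 library, KO dexamethasone 3 h replicate 1. Sdhb, the iron-sulfur subunit of complex II, had 256, 302, 262, 305 and 310.0 CPM, against 239, 187 and 237 CPM in KO saline libraries (0.38 ± 0.12, adjusted p = 0.0262). For Sdhb the groups did not overlap.

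Uqcrh, the hinge protein of complex III, had 229, 295, 287, 328 and 339 CPM in KO dexamethasone 3 h libraries, against 245, 191 and 234 CPM in KO saline libraries (log2 fold change 0.40 ± 0.12, adjusted p = 0.0164). Atp5l, subunit g of complex V, had 53.2, 83, 84.8, 100 and 93.1 CPM, against 66.4, 40.9 and 60.6 CPM in KO saline libraries (0.57 ± 0.162, adjusted p = 0.0126). In both genes replicate 1 of the dexamethasone group lay among the saline values. Cox8b, the muscle form of subunit 8, had 82.9, 127, 118, 143 and 212 CPM, against 96.9, 62.3 and 96.7 CPM in KO saline libraries, again overlapping at replicate 1 (0.68 ± 0.203, adjusted p = 0.0168). The smallest p among members belonged to Ndufa13, an accessory subunit of complex I also known as GRIM-19, with 163, 184, 178, 191 and 240.0 CPM, against 145, 115 and 142 CPM in KO saline libraries (0.51 ± 0.13, adjusted p = 0.00486). Its groups did not overlap, though 30% of its exon bases are shared with Tssk6 and the library kit does not keep strand. Ndufa7, another accessory subunit of complex I, had 43.5, 47.9, 52.9, 62.3 and 79.3 CPM, against 38.9, 34.3 and 41.7 CPM in KO saline libraries, without overlap (0.58 ± 0.16, adjusted p = 0.0097). Ndufb4, also of complex I, had 10.9, 15.4, 19, 16 and 15.1 CPM, against 12.7, 7.87 and 10.5 CPM in KO saline libraries, with overlap at replicate 1 (0.56 ± 0.164, adjusted p = 0.0154). In all 9 genes KO saline 3 h replicate 2 was the lowest of the 8 libraries.

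Without KO saline 3 h replicate 2, 0 of the 88 members passed, 27 had an unadjusted p under 0.05, and the median log2 fold change was 0.28. Without KO dexamethasone 3 h replicate 5, an ML1716 library, 7 passed, and without replicate 1 of that group 48 did. The count was 16 without KO dexamethasone 3 h replicate 4 and 17 without KO saline 3 h replicate 3. Of all genes tested, 5.42% rose without KO saline 3 h replicate 2 and 6.59% without its replicate 3, and 7.21%, 11.1% and 7.73% rose without KO dexamethasone 3 h replicates 5, 1 and 4, in that order. Without all 5 ML1716 libraries 43 passed, all 29 among them (all genes: 9.55% higher). The log2 fold changes fell with transcript length across members (Spearman's rho -0.55 over 88 genes, a description, since genes are not independent). Members under 700 bases had a median of 0.47 and 16 of 35 rose, whereas the 17 over 1500 bases had a median of 0.19 and 1 rose. Of the 296 other genes under 700 bases, 20.9% rose, with a median of 0.37. With the length correction, 3 of 88 members passed (all genes: 8.23% higher), Ndufa13 (log2 fold change 0.37), Ndufs3 (0.29) and Uqcrq (0.43). The members' median was 0.16 and rho was 0.10. Each gene's length is that of 1 chosen transcript, 1251 bases for Ndufa13 and 1521 for Uqcrq. A longer length leaves more of a value in place, so these calls depend on that choice. Uqcrq is also the 1 member over 1500 bases that rose without the correction.

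**Figure D2:**
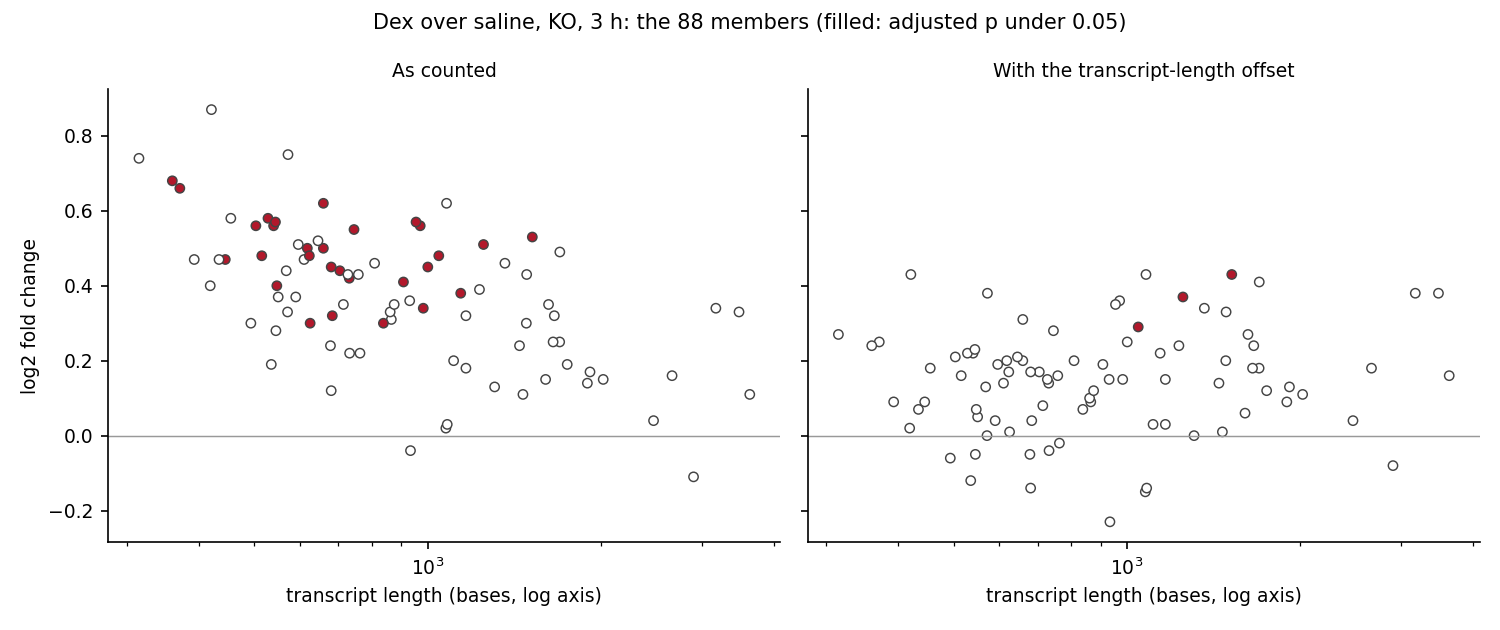
Log2 fold change of dexamethasone over saline in KO muscle at 3 h against transcript length (log axis) for the 88 members, as counted (left) and with the transcript-length correction (right); filled points passed an adjusted p of 0.05. The downward trend on the left (rho -0.55) is not seen on the right (rho 0.10), where 3 points are filled.

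In WT muscle at 3 h most values were above 0 but 1 member passed the test. Of the 88, 1 rose and 0 fell in WT dexamethasone over WT saline libraries (all genes: 14.9% called, 6.77% higher), 16 had an unadjusted p under 0.05, and the median log2 fold change was 0.22, with 86 values above 0. The gene that rose was Atp5d, the delta subunit in the central stalk of complex V, with 235, 265, 219, 226 and 251 CPM in WT dexamethasone libraries, against 172, 148 and 178 CPM in WT saline libraries. Its groups did not overlap (log2 fold change 0.52 ± 0.151, adjusted p = 0.0143), and it passed in each of the other settings tried except without WT saline 3 h replicate 2 (adjusted p = 0.113). The complex medians were 0.25 for complex I, 0.20 for complex II, 0.28 for complex III, 0.27 for complex IV and 0.23 for complex V. Next in order of p came Uqcrc1, a core protein of complex III (0.34 ± 0.124, adjusted p = 0.0581), and Ndufs7, a core subunit of complex I (0.42 ± 0.162, adjusted p = 0.0768). The count differed between fits: 22 passed when only the groups of the contrast were fitted and 23 without the ML1716 libraries, while 1 passed with the length correction, where the median was 0.10. The share of all genes called higher was 8.63% with the groups of the contrast only, 9.99% without the ML1716 libraries and 7.34% with the length correction.

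The larger count in KO muscle does not show a larger response there. In the test of the difference itself, the dexamethasone effect in KO minus that in WT at 3 h, 0 of 88 members passed (all genes: 0.0% called), 0 had an unadjusted p under 0.05, and DESeq2 also called 0 members. The smallest p belonged to Atp5k, subunit e of complex V (difference in log2 fold change 0.52 ± 0.278, adjusted p = 0.999). Both effects are set against 3 saline libraries each.

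**Figure D3:**
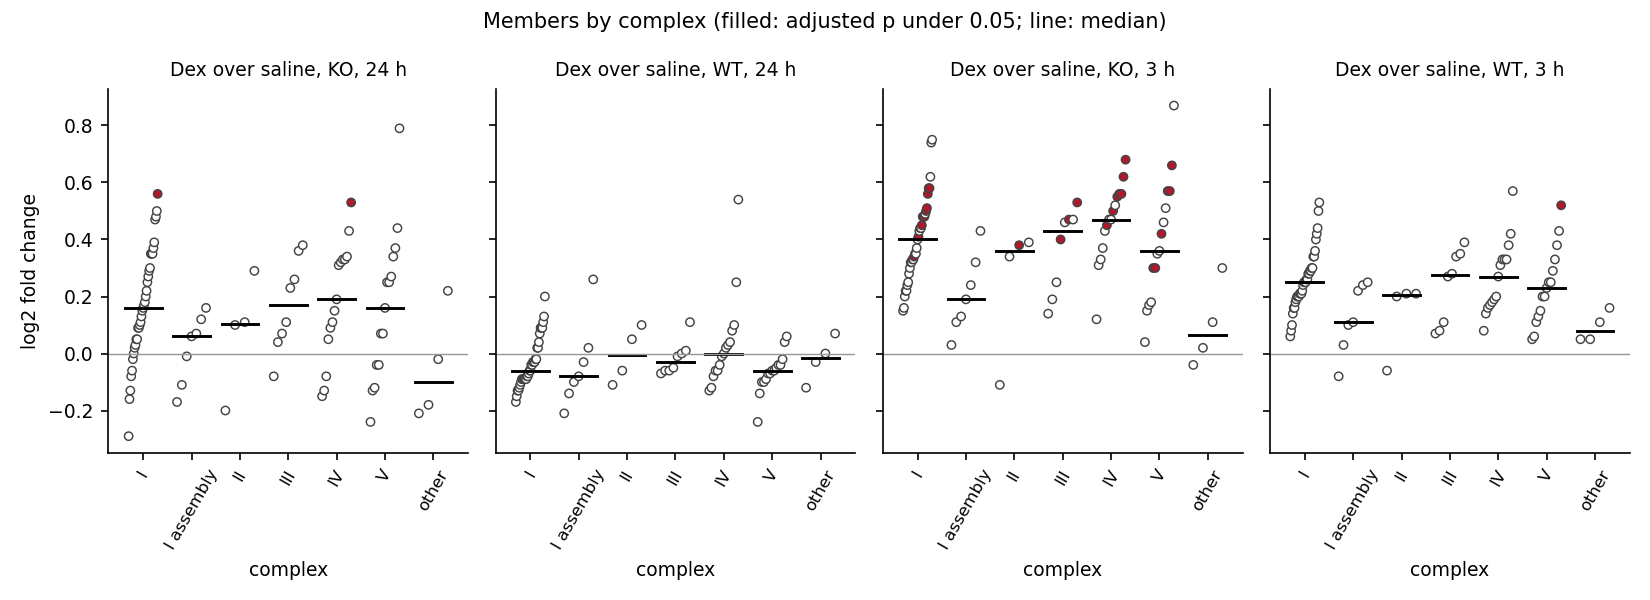
Log2 fold change of dexamethasone over saline for each member by complex, in KO and WT muscle at 24 h and 3 h; filled points passed an adjusted p of 0.05 and lines are medians. Nearly all points lie above 0 at 3 h in both genotypes, 29 of 88 are filled in KO at 3 h, and WT at 24 h centres on 0.

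At 24 h little was called in either genotype. In KO muscle 2 of 88 members rose and 0 fell (all genes: 10.9% called, 5.87% higher), with a median log2 fold change of 0.12. Ndufs4, a complex I subunit near its NADH-oxidizing module, had 131, 141, 141, 189 and 181 CPM in KO dexamethasone 24 h libraries, against 103, 104 and 112 CPM in KO saline 24 h libraries (0.56 ± 0.18, adjusted p = 0.0424). Cox6c, a small complex IV subunit, had 211, 251, 216, 330.0 and 336 CPM, against 171, 190.0 and 199 CPM in KO saline libraries (0.53 ± 0.171, adjusted p = 0.0425). In both genes the groups did not overlap, and the upper pair of dexamethasone values came from the ML1716 libraries, replicates 4 and 5. Without the ML1716 libraries neither passed (0.37 and 0.28, adjusted p = 0.0597 and 0.186), and Atp5e and Uqcr11 passed in their place. Each of the pair passed in 3 of the 8 fits with a library of the contrast left out, and 0 members passed without KO dexamethasone 24 h replicate 4 or 5 or without any one of the 3 KO saline 24 h libraries. The share of all genes called in these fits is not given.

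A pair of abundant members with long transcripts had values below 0 in KO muscle at 24 h. Atp5a1 had 2180.0, 2350.0, 2290.0, 1940.0 and 2180.0 CPM in KO dexamethasone 24 h libraries, against 2650.0, 2460.0 and 2660.0 CPM in KO saline libraries, with no overlap (log2 fold change -0.24 ± 0.0887, adjusted p = 0.0733). Sdha had 1140.0, 1160.0, 1090.0, 1120.0 and 1150.0 CPM, against 1300.0, 1200.0 and 1390.0 CPM in KO saline libraries, again with no overlap (-0.20 ± 0.0804, adjusted p = 0.103). Neither passed edgeR's test, and DESeq2 called Atp5a1 as lower. No other member lay wholly below its saline libraries in this contrast. More members lay wholly above: Ndufs7, Cox7c, Ndufs4, Cox6c, Atp5j, Ndufa7, Ndufa2, Atp5e, Atp5k, Atp5j2, Ndufa4 and Cox4i1. The share of all genes without overlap was not counted, so the lack of overlap is a description only.

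In WT muscle at 24 h, 0 of 88 members passed by edgeR (all genes: 13.8% called), 2 had an unadjusted p under 0.05, DESeq2 called 0 and limma-voom called 1. The median log2 fold change was -0.05, and the medians of complexes I to V lay between -0.06 and 0.00. The smallest p belonged to Cox4i2 (0.54 ± 0.229, adjusted p = 0.117), at the lowest level of all members. The difference of the 24 h effects between KO and WT passed for 0 of 88 members (all genes: 0.0% called), with 5 at an unadjusted p under 0.05 and 0 by DESeq2; the smallest p belonged to Atp5j2, subunit f of complex V (0.58 ± 0.26, adjusted p = 0.777).

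The change of the dexamethasone effect from 3 h to 24 h was also tested as a difference of effects. In KO muscle 0 of 88 members passed (all genes: 10.8% called), 6 had an unadjusted p under 0.05, and the median was -0.21; Ndufab1 had the smallest p (-0.62 ± 0.258, adjusted p = 0.133). In WT muscle 0 of 88 passed (all genes: 17.1% called), 7 had an unadjusted p under 0.05, and the median was -0.26; Ndufb7, an accessory subunit of complex I, had the smallest p (-0.51 ± 0.214, adjusted p = 0.0973). DESeq2 called 0 members in either genotype, and limma-voom called 5 in WT muscle.

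The saline groups themselves differed by time. In saline libraries at 24 h over saline libraries at 3 h, averaged over KO and WT, 13 of 88 members rose and 0 fell (14.8%; all genes: 2.47% called, 1.09% higher), with a median log2 fold change of 0.30. Uqcr11, the smallest complex III subunit, had 164 to 230.0 CPM (median 188, n = 7) in saline 24 h libraries, against 115 to 146 CPM (median 132, n = 6) in saline 3 h libraries (0.54 ± 0.118, adjusted p = 0.0118). Cox5b, the zinc-binding subunit of complex IV, had 196 to 244 CPM (median 229), against 121 to 196 CPM (median 164) in saline 3 h libraries (0.50 ± 0.11, adjusted p = 0.0119). Uqcrq had 154 to 235 CPM (median 166), against 94.4 to 137 CPM (median 119) in saline 3 h libraries (0.55 ± 0.124, adjusted p = 0.0149). The groups of Uqcr11 and Uqcrq did not overlap and those of Cox5b met at 196 CPM. By complex the count was 8 of 35 for complex I, 0 of 4 for complex II, 2 of 8 for complex III, 1 of 15 for complex IV and 2 of 15 for complex V. The same saline 3 h libraries stand under the dexamethasone contrasts at 3 h, so the results share those libraries. Without KO saline 3 h replicate 2, 2 passed (Cox5b and Uqcr11). Leaving out WT saline 3 h replicate 2 gave 3 members, and the number was 8 without replicate 1 or without replicate 3 of that group, 7 without KO saline 24 h replicate 1, 4 without KO saline 24 h replicate 3, 5 without WT saline 24 h replicate 4 and 20 without WT saline 24 h replicate 1. With the length correction 1 passed. In the main fit the 296 other short genes had a median of 0.27. For the other fits of this contrast the share of all genes called is not given. Their counts alone do not show whether the members or all genes gained or lost calls.

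**Figure D4:**
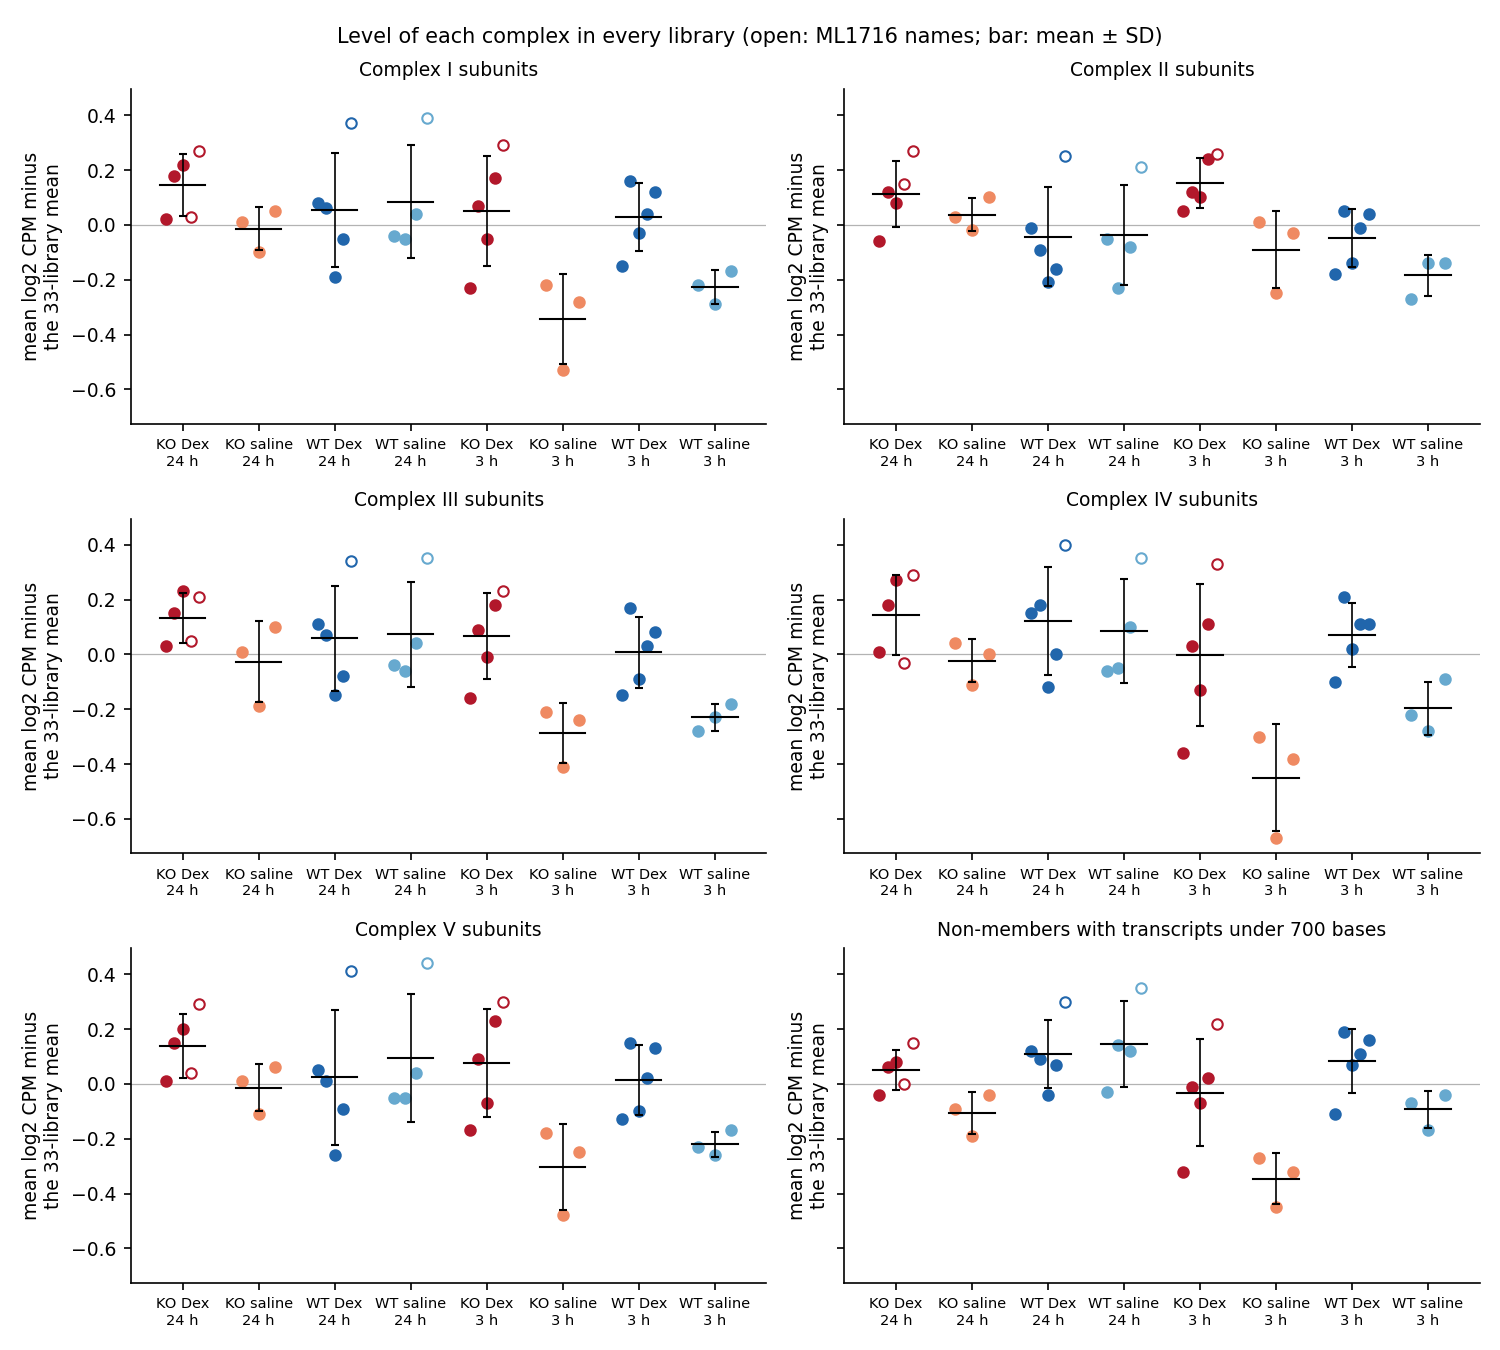
Mean log2 CPM of the subunits of each complex minus their mean over 33 libraries, in every library of the 8 groups, and the same for 296 genes that are no members and have transcripts under 700 bases; open points are ML1716 libraries and bars are the mean ± SD. The saline 3 h groups lie lowest in complexes I to V. KO saline 3 h replicate 2 is at the bottom in complexes I, III, IV and V, and WT saline 3 h replicate 1 (-0.27) in complex II. KO saline 3 h is also the lowest group for the other short genes (mean -0.35), where WT saline 3 h (-0.09) and KO saline 24 h (-0.11) lie close together.

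Between genotypes a few members of different size changed in each direction. In KO over WT libraries, as the mean of the 4 treatment and time strata, 4 of 88 members rose and 3 fell (7.95%; all genes: 20.9% called), with a median log2 fold change of -0.02. Those that rose have transcripts of 1604 to 2900 bases. Sdha (GRCm38 chr13:74322254-74350280, minus strand) had 1090.0 to 1540.0 CPM (median 1270.0) in 16 KO libraries, against 974 to 1180.0 CPM (median 1090.0) in 17 WT libraries, a log2 fold change of 0.24 ± 0.0396 (adjusted p = 3.74e-05). Atp5f1, subunit b in the peripheral stalk of complex V, had 487 to 633 CPM (median 560.0) in KO libraries, against 445 to 576 CPM (median 504) in WT libraries (0.16 ± 0.0403, adjusted p = 0.00481). Uqcrc2, a core protein of complex III, had a median of 549 CPM in KO libraries, against 501 CPM in WT libraries (0.15 ± 0.0422, adjusted p = 0.00822), and shares 19.7% of its exon bases with Pdzd9. Ndufs1, the largest core subunit of complex I, had a median of 422 CPM in KO libraries, against 349 CPM in WT libraries (0.22 ± 0.0606, adjusted p = 0.00915). The ranges of all 4 genes overlapped between genotypes.

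The members that fell in KO muscle have transcripts of 360 to 515 bases. Cox8b (GRCm38 chr7:140898945-140900446, minus strand) had 62.3 to 212 CPM (median 128) in KO libraries, against 132 to 244 CPM (median 159) in WT libraries (log2 fold change -0.35 ± 0.0972, adjusted p = 0.0086). Ndufa3, an accessory subunit of complex I, had 52.3 to 156 CPM (median 102), against 85.1 to 143 CPM (median 112) in WT libraries (-0.22 ± 0.0705, adjusted p = 0.0244). Ndufv3 had a median of 60.3 CPM in KO libraries, against 66.2 CPM in WT libraries (-0.18 ± 0.063, adjusted p = 0.0384). Ndufa3 and Ndufv3 lie outside the rule for named genes in this comparison and are named because the count is small. Leaving out any library in turn kept the calls of Sdha, Atp5f1, Uqcrc2, Ndufs1 and Cox8b in 33 of 33 cases each, that of Ndufa3 in 31 and that of Ndufv3 in 17. The same 5 genes passed with the length correction (0.24, 0.20, 0.18, 0.23 and -0.17, in that order) and without the ML1716 libraries; with the length correction 22 members passed (all genes: 20.7% called), of which 21 rose and 1 fell, against 4 and 3 without it, and Ndufa3 and Ndufv3 were not among them.

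**Figure D5:**
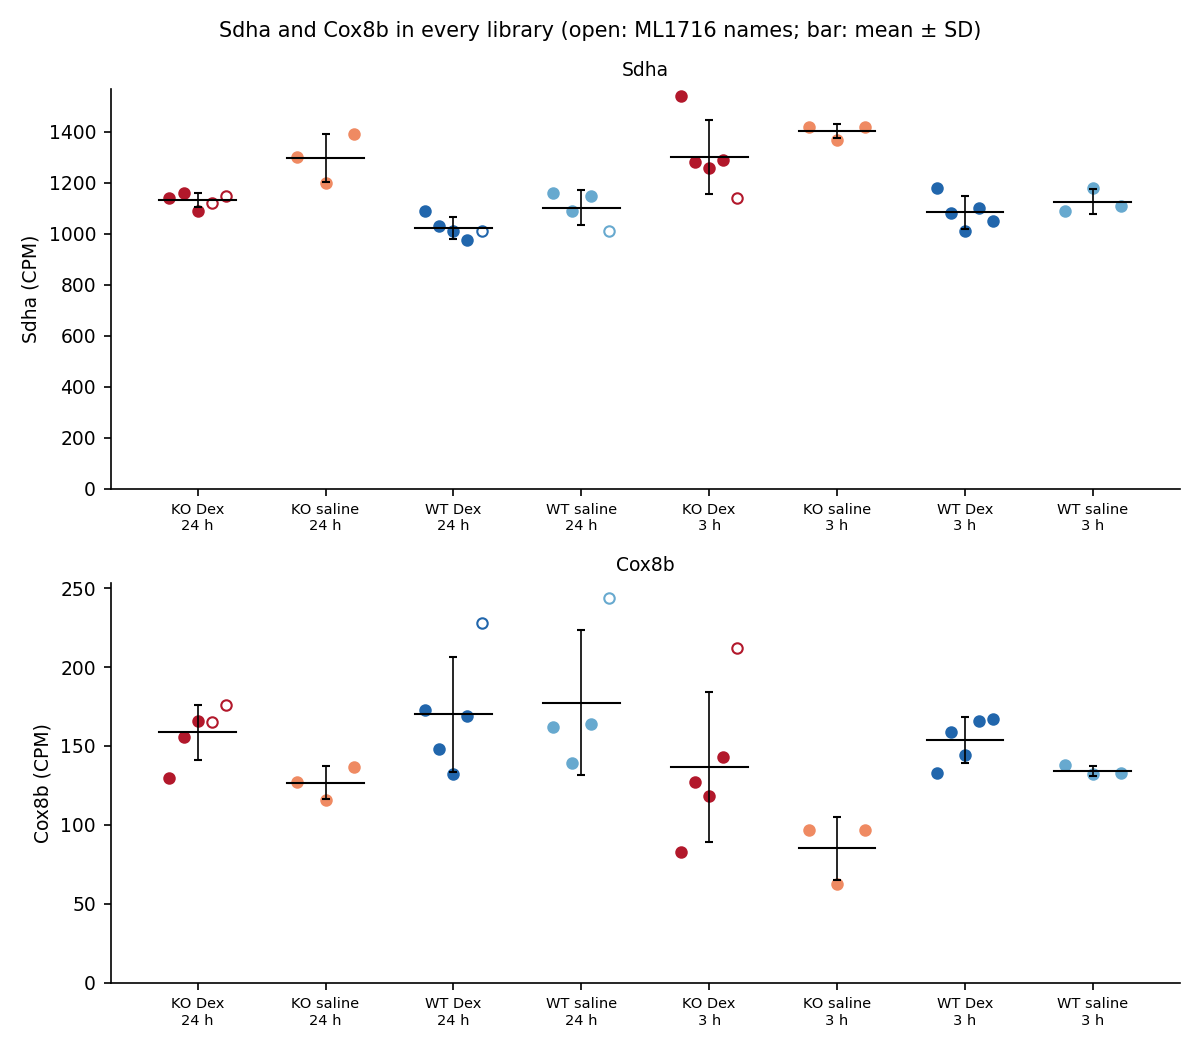
CPM of Sdha (top) and Cox8b (bottom) in every library of the 8 groups; open points are ML1716 libraries and bars are the mean ± SD. Sdha averages higher and Cox8b lower in KO than in WT libraries of the same treatment and time, with some overlap between libraries.

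Sdha and Cox8b also passed in saline libraries alone. Sdha had 1200.0 to 1420.0 CPM (median 1380.0, n = 6) in KO saline libraries, against 1010.0 to 1180.0 CPM (median 1110.0, n = 7) in WT saline libraries, with no overlap (log2 fold change 0.28 ± 0.0618, adjusted p = 0.00383). Cox8b had 62.3 to 137 CPM (median 106), against 132 to 244 CPM (median 139) in WT saline libraries, with slight overlap (-0.57 ± 0.153, adjusted p = 0.0149). Ndufa3 also fell (-0.37 ± 0.11, adjusted p = 0.0302), so that 1 member rose and 2 fell (all genes: 8.99% called). Without KO saline 3 h replicate 2, Sdha passed and the other pair did not. In 5 other fits with a saline library left out (WT saline 3 h replicate 1 or 3, KO saline 24 h replicate 1 or 2, or WT saline 24 h replicate 3), Sdha and Cox8b passed and Ndufa3 did not. Cox8b is known to be high in brown fat as well as in muscle. Of the 10 adipocyte markers 6 fell in KO saline libraries, Cidea by 1.28 and Ucp1 by 1.82 on the log2 scale (adjusted p = 0.00155 and 0.026), and their summed level was 1070.0 to 1430.0 CPM in KO saline 24 h libraries, against 1220.0 to 1770.0 CPM in WT saline 24 h libraries, and 892 to 1200.0 CPM in KO saline 3 h libraries, against 1360.0 to 1720.0 CPM in WT saline 3 h libraries. Their part in the value of Cox8b was not tested. In bulk tissue, fewer cells of a type and less RNA per cell cannot be told apart.

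Genes around the chain were taken from lists of neighbouring pathways. The shares of all genes called were 17.5% in KO and 14.9% in WT muscle at 3 h, and 10.9% and 13.8% at 24 h. As higher, 9.02% (KO) and 6.77% (WT) were called at 3 h. In KO over WT libraries the share called was 20.9%. Among 31 further assembly and biogenesis factors tested, 2 rose in KO muscle at 3 h (Coa3 and Pet100, which act in complex IV assembly) and 1 in WT muscle (Coa3), with medians of 0.21 and 0.10; at 24 h, 2 rose and 2 fell in KO muscle and 0 changed in WT muscle. Of 18 electron carriers and coenzyme Q genes, Cyc1, the cytochrome c1 of complex III, which the symbol rule leaves out, rose in KO muscle at 3 h (0.49 ± 0.153, adjusted p = 0.024) and not in WT muscle (0.39 ± 0.153, adjusted p = 0.09). Of 8 genes of ADP exchange and ATP synthase inhibition, the carriers Slc25a5 (1.12 ± 0.238, adjusted p = 0.000804) and Slc25a4 (0.39 ± 0.128, adjusted p = 0.0326) rose in KO muscle at 3 h, and Slc25a5 in WT muscle (0.77 ± 0.235, adjusted p = 0.0223). Of 14 genes of the citric acid cycle, which feeds complex I and complex II, none changed at 3 h in either genotype, and Idh3a fell in KO muscle at 24 h. Between genotypes 7 of these 14 rose in KO over WT libraries and 0 fell (median 0.12), among them Idh3a (0.24 ± 0.0373, adjusted p = 1.46e-05), Sucla2 (0.27 ± 0.0479, adjusted p = 8.51e-05) and Ogdh (0.24 ± 0.0537, adjusted p = 0.00134).

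Among known regulators of these genes, those called at 3 h lay in both directions. Over all genes, 17.5% (KO) and 14.9% (WT) were called at 3 h, and 10.9% (KO) and 13.8% (WT) at 24 h. Of 19 tested, 3 rose and 2 fell in KO muscle and 3 rose and 3 fell in WT muscle, with medians of 0.03 and 0.00. Ppard, a nuclear receptor for fatty acids, rose in KO muscle (1.01 ± 0.164, adjusted p = 2.02e-05) and in WT muscle (1.26 ± 0.166, adjusted p = 6.95e-07). Ppara, its relative, rose by 1.34 ± 0.229 and 1.20 ± 0.228 (adjusted p = 4.39e-05 and 0.000191), and the corepressor Nrip1, which is known to restrain oxidative genes, rose by 0.44 ± 0.151 and 0.64 ± 0.152 (adjusted p = 0.0399 and 0.00265). The coactivator Ppargc1b fell in KO muscle (-1.22 ± 0.254, adjusted p = 0.000608) and in WT muscle (-1.24 ± 0.256, adjusted p = 0.000521), as did Gabpb2, a GABP subunit (-0.37 ± 0.0975 and -0.31 ± 0.0979, adjusted p = 0.00615 and 0.0264). Ppargc1a, which encodes PGC-1 alpha, fell in WT muscle (-1.13 ± 0.292, adjusted p = 0.00568) and had 0.13 ± 0.298 in KO muscle (adjusted p = 0.801); the interaction at 3 h called none of the 19. Esrra, Nrf1, Gabpa and Tfam did not pass at 3 h in either genotype. At 24 h Nrip1 fell in both genotypes (-0.94 ± 0.149 in KO and -0.87 ± 0.138 in WT muscle, adjusted p = 8.43e-05 and 6.04e-05). Ppargc1b fell in KO muscle at 24 h (-0.90 ± 0.249, adjusted p = 0.0169), while Gabpa (0.38 ± 0.125, adjusted p = 0.0416) and Yy1 (0.39 ± 0.104, adjusted p = 0.0112) rose and Ppara (-0.71 ± 0.204, adjusted p = 0.0172) fell in WT muscle.

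Markers of other cells and of fibre types were read beside the members. Beside their counts stand the shares of all genes called. These were 17.5% (KO) and 14.9% (WT) at 3 h, 10.9% (KO) and 13.8% (WT) at 24 h, and 20.9% in KO over WT. Of 9 markers of slow and type 2A fibres, 0 changed at 3 h in either genotype or in WT muscle at 24 h, and Myh2 fell in KO muscle at 24 h. The 8 fast-fibre markers were Myh4, Myh1, Tnnt3, Tnni2, Tnnc2, Mylpf, Atp2a1 and Pvalb, which are not all particular to type 2B fibres. Of these, Mylpf rose in KO muscle at 3 h, and 3 (Tnnc2, Tnnt3 and Tnni2) fell in KO over WT libraries. The type 2B myosin Myh4 was not called in KO over WT libraries. Of 11 macrophage markers tested, 3 rose in KO muscle at 3 h, 2 rose and 1 fell in WT muscle at 3 h, 1 fell in KO muscle at 24 h and 8 fell in WT muscle at 24 h. Of 10 adipocyte markers, 3 rose in KO muscle at 3 h, where their summed level was 1180.0 to 1720.0 CPM in KO dexamethasone libraries, against 892 to 1200.0 CPM in KO saline libraries, and 2 fell in WT muscle at 3 h. Of 10 endothelial markers, 2 rose and 3 fell in KO muscle at 3 h and 1 rose and 4 fell in WT muscle at 3 h; at 24 h, 2 fell in KO muscle, and 1 rose and 1 fell in WT muscle. Of 10 fibroblast markers, 1 rose and 1 fell in KO muscle and 1 fell in WT muscle at 3 h, and 3 fell in KO muscle and 5 in WT muscle at 24 h. Of 6 smooth muscle markers, 2 rose in KO muscle and 1 in WT muscle at 3 h, and 1 fell in KO muscle and 1 rose in WT muscle at 24 h. Only 2 of 6 erythroid markers could be tested; Alas2 rose in KO muscle at 3 h and Slc4a1 fell in KO muscle at 24 h. The part of these cells in the members' values was not tested.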

How the data were processed

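Quadriceps RNA of 33 samples was prepared with an Illumina TruSeq RNA kit, per the labels' protocols; that kit does not keep strand. The deposited files give raw read counts per gene symbol for each library. The notes on processing by the submitters list STAR, HTSeq, limma 3.40.6 and mm10, and the annotation is not given in the sources used here. Lines that name no gene were left out of totals (24.6 to 33.2% no feature, 0.188 to 0.3% ambiguous). The 55 pairs of libraries within groups were compared and none was a repeat (chi-square per degree of freedom at least 10.9).

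The software was edgeR 4.0.16 under R 4.3.3. After filterByExpr (13955 genes; all 88 members) and TMM scaling (factors 0.932 to 1.09), 1 quasi-likelihood model with a mean for each of 8 groups was fitted over all libraries, and 11 contrasts were tested at an adjusted p of 0.05. CPM are TMM-scaled. Transcript lengths (1 chosen transcript per gene), positions and shared exon bases came from GENCODE M21 (GRCm38), where 88 of 88 members matched. Promoters came from RefSeq. Alternatives were DESeq2 1.42.0, limma-voom 3.58.1, other scalings, filters and fits, and each library left out. The length correction, the ML1716 term and complexes by symbol were added after the data were seen. In simulated counts for KO at 3 h, 70% of 100 genes changed 1.5-fold and 97% of 100 changed 2-fold were recovered, with 13955 genes fitted. Of the unchanged genes 8 were called. These counts were drawn for each gene independently, without the shifts of short transcripts that the libraries share. Recovery under such shifts, or of changes under 1.5-fold, was not measured.

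The members, the lists and the rule for named genes were chosen with earlier results of these data known. The rule named, per dexamethasone contrast, the 8 members with the smallest p and the first of each complex and of the assembly factors; the first 4 in other contrasts; the isoforms of complex IV, complex II, catalytic subunits and c subunits; the highest and lowest level of each complex; and, per list, the 3 smallest p and 6 regulators. Motifs were chosen from textbook knowledge. The level of 1 core subunit is not reported here.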

Additional observations from a re-analysis of the deposited data

Results flagged for a closer look

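Some libraries stood far from the others of their group, by a gap test at the 95% level. Chance passes that test in about 1 in 20 groups. The groups with n = 3 (KO saline 3 h, WT saline 3 h and KO saline 24 h) were not looked at. KO saline 3 h replicate 2 therefore could not be flagged here. In the larger groups, 95 groups of values were looked at and 9 stood out. WT saline 24 h replicate 4, an ML1716 library, was the high value in 6 of them. There the complex I assembly factors had a mean log2 level of 0.31 around the 33-library mean, with the next library at -0.05. It had 168 CPM of Ndufs3 (next 130.0), 330.0 CPM of Sdhb (next 244), 391 CPM of Cox6b1 (next 282), 110.0 CPM of Atp5l (next 90.0) and 179 CPM of Ndufs4 (next 114). WT dexamethasone 24 h replicate 5, also an ML1716 library, stood high in the assembly factors (0.23, next -0.04) and in Ndufs4 (207 CPM, next 130.0). WT dexamethasone 3 h replicate 1 stood low in Ndufs3 (117 CPM, next 137). The same ML1716 libraries were the highest of their groups for the 296 other genes with short transcripts. No difference of the dexamethasone effect between genotypes passed for any member.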

How the results depend on the processing

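No paired analysis was possible because replicates carry no number of their own in the labels. Counts of members called changed as follows. For most of these fits, and for those with a library left out, the share of all genes called is not given. Such a count alone does not show whether the members or all genes gained or lost calls. With library totals alone, 15 were called in KO at 3 h, 0 in KO at 24 h and 20 in saline by time. With limma-voom, 55 were called in KO at 3 h, 11 in WT at 3 h, 1 each in KO and WT at 24 h, 15 in KO over WT (10 higher), 7 in saline KO over WT, 5 in the WT time contrast and 35 in saline by time. The DESeq2 test called 2 in WT at 3 h and 26 in saline by time. With only the groups of the contrast, 22 were called in WT at 3 h, 1 in KO at 24 h and 25 in saline by time. Without the ML1716 libraries, 23 were called in WT at 3 h, 12 in KO over WT, 6 in saline KO over WT, 1 in each time contrast and 21 in saline by time, and 43 in KO at 3 h. With the ML1716 series as a term, 45 were called in KO at 3 h, 9 in WT at 3 h, 0 in KO at 24 h, 12 in KO over WT, 5 in saline KO over WT and 27 in saline by time. With the length correction, 3 were called in KO at 3 h, 1 in KO at 24 h, 22 in KO over WT (21 higher, 1 lower, where the main split was 4 and 3), 5 in saline KO over WT and 1 in saline by time. The length correction and the ML1716 term were chosen after seeing the data. The causes were not tested.

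With the length correction the medians of complexes I to V were 0.17, 0.23, 0.09, 0.20 and 0.14 in KO at 3 h and 0.12, 0.10, 0.14, 0.11 and 0.10 in WT at 3 h; in KO at 24 h they were 0.03 (I), 0.01 (III), 0.02 (IV) and -0.01 (V). With the ML1716 term, KO at 24 h gave 0.06 (I) and -0.03 (II). Other settings moved the medians by less than the SD between libraries.

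With each library left out, the counts ran from 0 to 48 in KO at 3 h, 0 to 2 in WT at 3 h, 0 to 2 in KO at 24 h, 0 to 0 in WT at 24 h, 5 to 10 in KO over WT, 1 to 4 in saline KO over WT, 0 to 1 in the KO and 0 to 7 in the WT time contrast (7 without WT dexamethasone 24 h replicate 5), and 2 to 20 in saline by time (2 without KO saline 3 h replicate 2); both interactions stayed at 0.

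Among the genes and contrasts that the rule for named genes picked, 13 log2 fold changes changed sign, all uncalled. With a library left out, they ran from -0.04 to 0.10 (Gabpa) and -0.01 to 0.15 (Vdac2) in KO at 24 h, from -0.13 to 0.35 (Ppargc1a, also -0.04 and -0.06) and -0.05 to 0.57 (Tnni1) in KO at 3 h, from -0.06 to 0.04 (Nrf1, also 0.00 and 0.01) in WT at 3 h, and from -0.02 to 0.31 (Myh4), -0.07 to 0.02 (Ppargc1a) and -0.09 to 0.01 (Uqcrc2) in WT at 24 h. With limma-voom, Ppargc1a had -0.05 in KO and Nrf1 0.00 in WT at 3 h. Without the ML1716 libraries, Nrf1 had 0.00 in WT at 3 h and Tnnc2 0.01 in KO at 24 h. With the ML1716 term, Slc25a3 had -0.07 in KO at 24 h and Tfam -0.01 in KO at 3 h. With the length correction, Ndufaf2 had -0.05 in KO and Tfam 0.01 in WT at 3 h. Over all 88 members, 9 uncalled values above 0 in KO at 3 h lay below 0 with the length correction, down to -0.15 (Cox7a2l).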
